A study of Mus musculus with 30 samples.

Results

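The proteasome subunit genes of the mouse were followed in B cells and chronic lymphocytic leukaemia (CLL) cells that carry a point mutation of Ikzf3. Every gene symbol made of Psma to Psmg and a number was taken, which gave 48 genes of 26266 named genes in the table of young mice and the same 48 of 22781 named genes in the table of aged mice. By role they are 7 alpha ring subunits and 7 constitutive beta ring subunits of the 20S core, 5 immunoproteasome genes, 6 ATPases and 11 other subunits of the 19S cap, 4 assembly chaperones of the core and 3 of the cap, 2 further activators, the inhibitor Psmf1, and 2 subunits known from germ cells and thymus. All libraries are RNA-seq of splenic cells of C57BL/6 mice. The allele is an Ikzf3 L161R knock-in limited to B cells, and the Cre driver is not given in the sources used here. Aiolos, the protein of Ikzf3, is a zinc finger transcription factor of the B lineage. Young groups, 2 to 3 months of age, are B cells of homozygous mutant mice (labelled Ikzf3 fl/fl, n = 3) and of wild-type mice (n = 3). Aged groups, 15 to 18 months of age, are CLL cells sorted for B220 and CD5 (n = 5, numbers 1, 2, 4 and 5 heterozygous, labelled Ikzf3 fl/+, and number 6 homozygous), non-CLL B cells of the same mutant mice (n = 4, numbers 2, 4 and 5 heterozygous and number 6 homozygous), and wild-type B cells (n = 3). Before any sort, B cells of all groups were enriched with magnetic beads, and those of aged mice were at least 85% pure. The labels do not state that the young libraries come from separate animals, so p-values there measure the spread between these libraries, which may be technical. By Xist and Ddx3y, given below, young wild-type library 3 does not come from the same animals as wild-type libraries 1 and 2.

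The proteasome is the cell's main machine for breaking down proteins tagged with ubiquitin. Its 20S core is a barrel of alpha and beta rings, and the 19S cap at the barrel's ends recognises, unfolds and feeds in the tagged protein. Lymphocytes and cells that have met interferon replace the constitutive catalytic subunits Psmb5, Psmb6 and Psmb7 by Psmb8, Psmb9 and Psmb10, and use the PA28 activator made of Psme1 and Psme2. This immunoproteasome cuts peptides suited to MHC class I, and in B cells it carries much of the normal protein turnover.

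Both tables hold TPM, a level per gene length that can be compared between genes of 1 library but keeps no read count, so the depth behind each value is unknown. Each table was tested on its own, and levels of the 2 tables are not compared by a test. The B cell marker genes (7 summed, including Cd79a and Pax5) came to 8082 to 8678 TPM in young homozygous libraries, 7772 to 9052 TPM in young wild-type libraries, 8217 to 13484 TPM in CLL libraries, 5296 to 10288 TPM in non-CLL libraries and 6591 to 12456 TPM in aged wild-type libraries. Ikzf3 itself was at 381 to 438 TPM in young homozygous libraries, against 214 to 276 TPM in young wild-type libraries. The libraries of the aged mutant mice hold a signal over genes that B cells do not use. The median of 1106 olfactory receptor genes was 1.08 to 9.66 TPM in CLL libraries, with number 6 highest, 7.16 to 9.24 TPM in non-CLL libraries and 0 to 0.745 TPM in aged wild-type libraries, and it was 0 in the 6 young libraries. Values of a few TPM in the aged mutant libraries lie within this background.

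Of the 48 genes, 40 have a promoter window in the RefSeq table of GRCm38.p6 (43 windows, from 250 bases before to 50 bases after the annotated start). The windows of Psmb8 and Psmb9, the inducible subunits with the largest decreases in young mutant B cells, are shown with the core letters TGGGAA of Ikaros family sites in capitals (TTCCCA where the match lies on the other strand). These genes are neighbours in the MHC region of chromosome 17, and the windows lie at chr17:34197945-34198244 on the plus strand and chr17:34187281-34187580 on the minus strand.
Psmb8: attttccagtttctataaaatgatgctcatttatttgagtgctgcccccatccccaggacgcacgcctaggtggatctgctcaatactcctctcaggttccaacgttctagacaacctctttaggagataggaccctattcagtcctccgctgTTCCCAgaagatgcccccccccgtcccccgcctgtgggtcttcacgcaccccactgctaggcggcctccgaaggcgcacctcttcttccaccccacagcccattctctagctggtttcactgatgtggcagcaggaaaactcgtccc
Psmb9: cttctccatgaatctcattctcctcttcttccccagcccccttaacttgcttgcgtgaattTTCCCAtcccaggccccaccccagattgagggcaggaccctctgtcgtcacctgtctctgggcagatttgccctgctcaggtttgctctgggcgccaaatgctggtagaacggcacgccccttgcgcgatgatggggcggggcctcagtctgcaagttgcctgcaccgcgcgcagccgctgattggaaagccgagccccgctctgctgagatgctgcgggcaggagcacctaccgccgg
The windows of Psmb5 and Psmb6, the constitutive subunits that Psmb8 and Psmb9 replace, are shown with the antioxidant response element TGACNNNGC in capitals, the type of site through which Nfe2l1 is known to drive proteasome genes. They lie at chr14:54617946-54618245 on the minus strand and chr11:70525107-70525406 on the plus strand.
Psmb5: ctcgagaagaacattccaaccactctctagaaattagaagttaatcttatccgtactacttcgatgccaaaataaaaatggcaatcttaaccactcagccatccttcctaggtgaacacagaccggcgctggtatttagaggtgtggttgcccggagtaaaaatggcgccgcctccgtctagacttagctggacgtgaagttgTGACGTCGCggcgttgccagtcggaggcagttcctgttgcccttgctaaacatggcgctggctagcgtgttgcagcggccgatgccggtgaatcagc
Psmb6: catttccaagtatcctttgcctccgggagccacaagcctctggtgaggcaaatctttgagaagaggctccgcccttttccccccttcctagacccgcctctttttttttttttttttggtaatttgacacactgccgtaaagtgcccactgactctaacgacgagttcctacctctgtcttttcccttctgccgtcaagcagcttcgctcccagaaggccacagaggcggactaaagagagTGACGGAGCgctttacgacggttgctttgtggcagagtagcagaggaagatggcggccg
On either strand, TGGGAA was found in 12 of the 43 windows (27.9%), against 25.6% of 32851 promoters of the same length. Each of the 5 immunoproteasome genes had it (Psme2 in 1 of 2 windows), as did Psma1, Psmc4, Psmd2, Psmd5, Psmd10, Psmd14 and Psmg4. Of the latter, Psmd10 was called lower and Psmd5 higher in young mutant B cells, and the rest were not called. A part of these sites in the changes was not tested. TGACNNNGC was found in 6 windows (14.0%, against 12.4% of all promoters), those of Psmb5, Psmb6, Psmc6, Psmd9, Psmd12 and Psme4. The interferon-stimulated response element (GAAA, any 2 bases, GAAA) was found in 5 windows (11.6%, against 3.44%), those of Psmb3, Psmd4, Psmd9, Psme1 and Psmg4, so Psme1 was its only immunoproteasome gene in these windows. CCAAT was found in 14 windows (32.6%, against 37.4%), GAANNTTC, the heat shock element, in 3 (6.98%, against 7.86%), and TGACGTCA, the cyclic AMP response element, in 0 (against 1.79%). TGACGTCA and TGACNNNGC share their first letters, and the other motifs were searched independently, so matches may overlap.

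In young mutant B cells the genes of the 20S core were mostly lower, those of the immunoproteasome in all 5 cases, while a few genes of the 19S cap and both further activators were higher. Of 46 tested genes, 17 fell and 7 rose in homozygous against wild-type libraries (limma on log2(TPM + 1), Benjamini-Hochberg adjusted p under 0.05). Over all 12219 tested genes, 12.6% were called lower, 38.4% higher and 51.0% in either direction. The median log2 change of the proteasome genes was -0.147, against 0.183 for all tested genes. Groups did not overlap for 34 genes, 27 of them lower and 7 higher in homozygous libraries, where all tested genes gave 16.9% lower, 44.5% higher and 61.4% in either direction. Psma8 and Psmb11 did not reach 1 TPM in 3 libraries and were not tested.

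**Figure D1:**
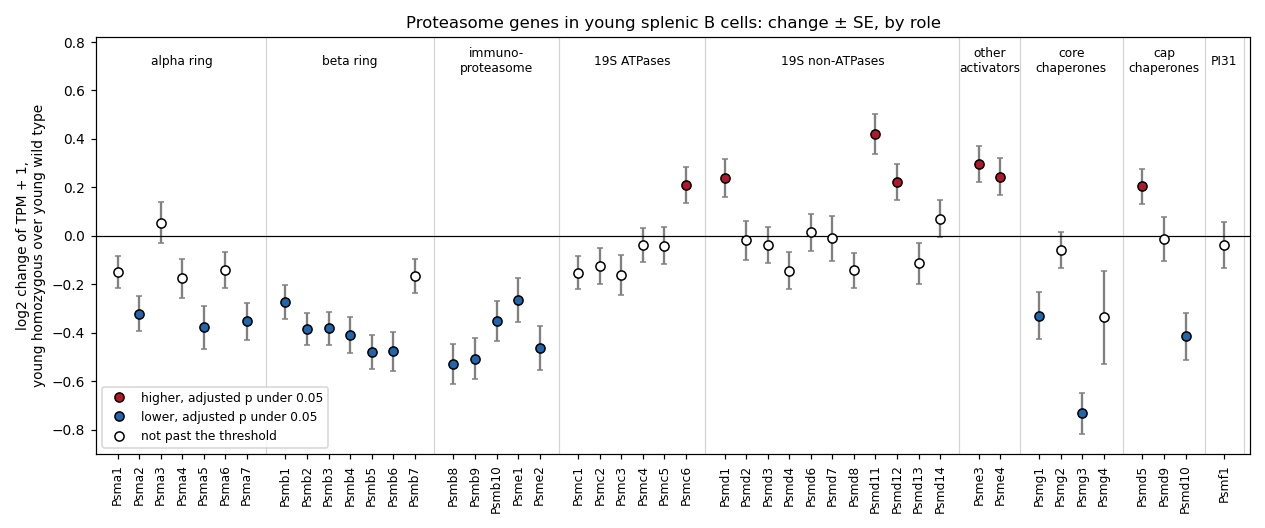
The log2 change of TPM + 1 (y axis, homozygous over wild type, bars are SE, n = 3 each) is plotted for the 46 tested genes, grouped by role. Blue points fell, red points rose and white points did not pass the threshold. All 5 immunoproteasome genes and 6 of 7 constitutive beta subunits are blue, and the 7 red points lie in the cap, its chaperone Psmd5 and the activators Psme3 and Psme4.

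All 5 immunoproteasome genes fell. Psmb8, the inducible subunit that takes the place of Psmb5, had 311, 295 and 321 TPM in homozygous libraries, against 418, 446 and 477 TPM in wild-type libraries (309 ± 13.0 and 447 ± 29.6, SD, n = 3 each). The groups did not overlap, and the log2 change was -0.53 (SE 0.08, adjusted p = 0.00118 by limma). Psmb9, which takes the place of Psmb6, had 207, 178 and 186 TPM in homozygous libraries, against 257, 274 and 280 TPM in wild-type libraries, a log2 change of -0.51 (SE 0.08, adjusted p = 0.00152 by limma). Psmb10, which takes the place of Psmb7, had 124, 112 and 116 TPM in homozygous libraries, against 142, 145 and 163 TPM in wild-type libraries, a log2 change of -0.35 (SE 0.08, adjusted p = 0.00761 by limma). Here too each homozygous library lay below each wild-type library. Of the PA28 subunits, Psme2 had 207, 216 and 198 TPM in homozygous libraries, against 256, 301 and 304 TPM in wild-type libraries, a log2 change of -0.46 (SE 0.09, adjusted p = 0.00312 by limma). Its partner Psme1, the immunoproteasome gene with the highest level in young cells, had 422, 407 and 395 TPM in homozygous libraries, against 440, 496 and 539 TPM in wild-type libraries, a log2 change of -0.26 (SE 0.09, adjusted p = 0.0387 by limma). Its highest homozygous library lay just below its lowest wild-type library.

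The constitutive beta ring fell alongside. Psmb5, the chymotrypsin-like subunit, had 53.1, 52.2 and 51.5 TPM in homozygous libraries, against 73.2, 75.4 and 71.1 TPM in wild-type libraries, a log2 change of -0.48 (SE 0.07, adjusted p = 0.000869 by limma). Psmb6, the caspase-like subunit, had 111, 107 and 95.6 TPM in homozygous libraries, against 143, 145 and 149 TPM in wild-type libraries, a log2 change of -0.48 (SE 0.08, adjusted p = 0.0015 by limma). Both were separated by more than the range of either group. Psmb7, the trypsin-like subunit, had 127, 119 and 124 TPM in homozygous libraries, against 135, 144 and 137 TPM in wild-type libraries, a log2 change of -0.17 (SE 0.07) whose adjusted p of 0.0745 by limma missed the threshold. The 4 beta subunits without a catalytic site, Psmb1, Psmb2, Psmb3 and Psmb4, fell by 0.27 to 0.41 on the log2 scale. Whether reads of Psmb5, Psmb6 and Psmb7 were split with similar copies elsewhere in the genome was not examined, so their levels are uncertain.

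**Figure D2:**
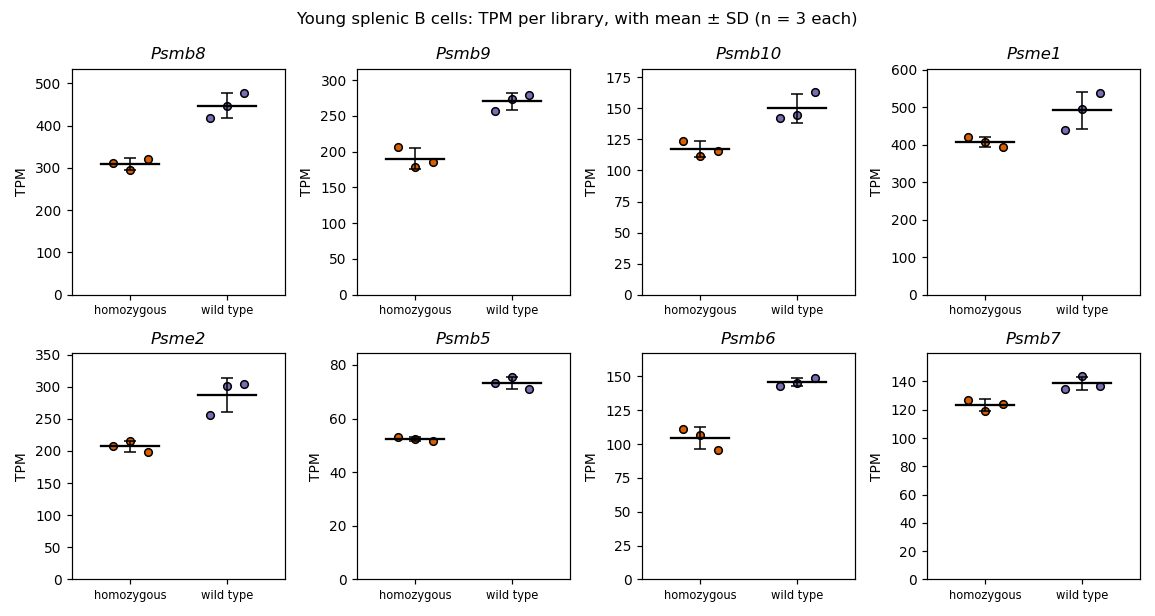
TPM per library (y axis) is shown for the 5 immunoproteasome genes and the 3 constitutive catalytic subunits in young homozygous (left) and wild-type (right) B cells, with mean ± SD, n = 3 each. In all 8 panels each homozygous library lies below each wild-type library.

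The share of each inducible subunit in its catalytic pair moved little. Psmb8 made up 85.5% ± 0.605 of the Psmb8 and Psmb5 sum in homozygous libraries and 85.9% ± 1.01 in wild-type libraries (SD, n = 3 each). Psmb9 made up 64.6% ± 1.82 of its pair with Psmb6 in homozygous libraries and 65.0% ± 0.614 in wild-type libraries. Both pairs differed by less than the spread between libraries. Psmb10 made up 48.8% ± 0.565 of its pair with Psmb7 in homozygous libraries, at 48.4% to 49.4%, and 51.9% ± 2.21 in wild-type libraries, at 50.2% to 54.4%. The groups did not overlap for this pair, and its exact permutation test (two-sided) gave p = 0.1, the smallest that 3 against 3 libraries allow. By the same exact test Psmb8 gave p = 0.6 and Psmb9 p = 0.8, and over the 12 pair tests made in the 4 comparisons no adjusted p was under 0.856.

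In the alpha ring, which gates the barrel, 3 of 7 genes fell. These were Psma5 (log2 change -0.38), Psma7 (-0.35) and Psma2 (-0.32), with adjusted p-values of 0.00696, 0.00482 and 0.00612 by limma. Psma1, Psma4 and Psma6 had log2 changes of -0.14 to -0.18 with groups that did not overlap, but did not pass the threshold, and Psma3 was at 0.05 (-0.15 with TMM scaling). Psma2 was the alpha gene with the highest level, at 194, 193 and 204 TPM in homozygous libraries, against 241, 257 and 243 TPM in wild-type libraries. Summed over the ring, the alpha genes reached 1014 ± 12.5 TPM in homozygous libraries and 1177 ± 61.5 TPM in wild-type libraries. The constitutive beta ring summed to 1014 ± 20.6 TPM in homozygous libraries and 1296 ± 24.4 TPM in wild-type libraries, and the 5 immunoproteasome genes to 1232 ± 33.5 TPM in homozygous libraries, against 1646 ± 126 TPM in wild-type libraries.

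In the 19S cap 4 of 17 genes rose and none fell, also at an unadjusted p under 0.05, where 38.4% of all tested genes were called higher and 12.6% lower. These counts depend on the scaling. TMM scaling, which centres on the bulk of the tested genes, called 11 cap genes lower and only Psmd11 higher. It called 18 of the 19 core and immunoproteasome genes lower. With TMM scaling 2722 of all 12219 tested genes were called lower and 2988 higher. The difference between core and cap was not tested. Psmd11 (chromosome 11, 80428615 to 80473248 in GRCm38.p6), a lid subunit that clamps the cap to the core, had 77.8, 90.6 and 90.7 TPM in homozygous libraries, against 64.3, 62.6 and 65.4 TPM in wild-type libraries, a log2 change of 0.42 (SE 0.08, adjusted p = 0.00335 by limma). The scaffold subunit Psmd1 (log2 change 0.24), the lid subunit Psmd12 (0.22) and the ATPase Psmc6 (0.21) rose with adjusted p-values of 0.0331, 0.0315 and 0.044 by limma. The remaining 13 lay between -0.16 and 0.07, among them the deubiquitinase Psmd14 at 0.07 (-0.13 with TMM scaling), the ubiquitin receptor Psmd4 at -0.14 and the scaffold Psmd2 at -0.02. Summed levels were 579 ± 8.3 TPM in homozygous libraries against 604 ± 19.2 TPM in wild-type libraries for the ATPases, and 974 ± 22.2 TPM in homozygous libraries against 963 ± 13.7 TPM in wild-type libraries for the other cap subunits. Both activators other than PA28 alpha and beta rose, with Psme3, the nuclear PA28 gamma, at a log2 change of 0.29 (SE 0.07, adjusted p = 0.01 by limma) and Psme4, the activator PA200, at 0.24 (SE 0.08, adjusted p = 0.0268 by limma). Psmf1, which encodes the inhibitor PI31, was at -0.04.

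Among the assembly chaperones, Psmg3 (chromosome 5, 139823613 to 139826894) had the largest change of the 46 genes. It had 20.7, 18.8 and 20.7 TPM in homozygous libraries, against 33.0, 33.0 and 35.9 TPM in wild-type libraries, a log2 change of -0.73 (SE 0.08, adjusted p = 0.000382 by limma). Psmg3 works as a pair with Psmg4 in building the alpha ring, and Psmg4 had 26.3, 28.5 and 28.3 TPM in homozygous libraries, against 29.5, 29.9 and 49.2 TPM in wild-type libraries. The high value of wild-type library 3 set its spread, and Psmg4 did not pass the threshold (log2 change -0.34, SE 0.19). Psmg1 fell (log2 change -0.33) and its partner Psmg2 was at -0.06. Of the cap's chaperones, Psmd10 fell (log2 change -0.41), Psmd5 rose (0.20) and Psmd9 was at -0.01.

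The changes were set beside gene span, other gene sets and markers of other cells. Over all tested genes the median log2 change was -0.085 for genes spanning up to 5000 bases, where 25.1% were called lower, and 0.343 for genes over 50000 bases, where 4.73% were. All 8 tested proteasome genes of up to 5000 bases fell, with a median log2 change of -0.471, and they include Psmb8, Psmb10, Psme1, Psme2, Psmb4, Psmb5, Psmb6 and Psmg3. The 4 of over 50000 bases had a median of 0.155, 2 of them rose and none fell, where 54.4% of all tested genes of this span were called higher. In the bins between, the proteasome genes also had lower medians than all tested genes. These were -0.143 against 0.0306 (5000 to 10000 bases), -0.12 against 0.142 (10000 to 20000) and -0.0895 against 0.234 (20000 to 50000). Of 76 cytosolic ribosomal protein genes 61 fell and 0 rose, with a median log2 change of -0.417, and of 77 mitochondrial ones 38 fell and 3 rose. The 13 myeloid markers summed to 364 to 708 TPM in homozygous libraries, against 1828 to 6490 TPM in wild-type libraries, with 6 of 13 called lower and none at 0 throughout. The 10 T and NK cell markers summed to 14.4 to 26.7 TPM in homozygous libraries, against 30.9 to 127 TPM in wild-type libraries, with 3 called lower and 0 higher. In bulk samples fewer cells of a type and less RNA per cell cannot be told apart. Wild-type libraries 1 and 2 had Xist at 80.9 and 63.1 TPM, the other 4 young libraries at 0 to 0.0567 TPM, the pattern of female cells. The part of span, ribosomal genes, myeloid, T and NK cell RNA and sex in the result was not tested.

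**Figure D3:**
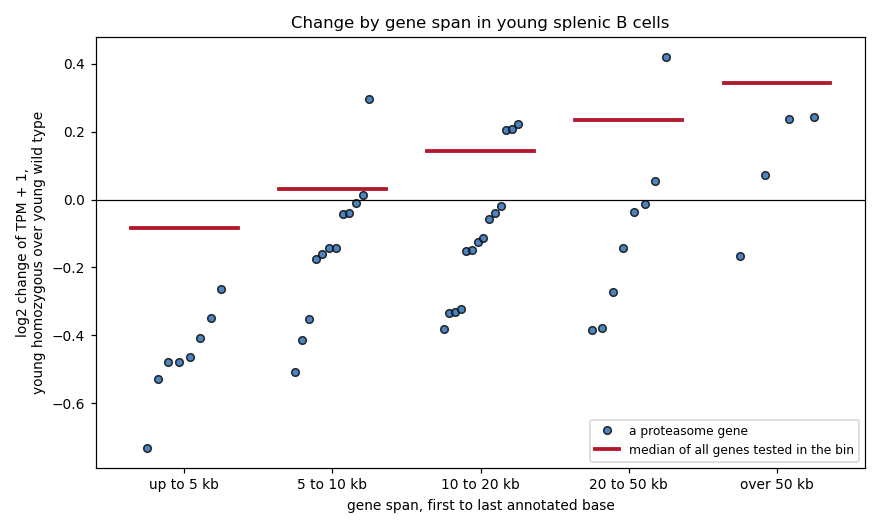
Each point is a tested proteasome gene, placed by its gene span (x axis, 5 bins) and its log2 change in young homozygous over wild-type B cells (y axis). Red lines are the medians of all tested genes in the bin, which run from -0.085 to 0.343 with span, and all 8 proteasome genes of the shortest bin lie below theirs.

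Part of the calls depended on single libraries, and a difference between falls and rises in this was not tested. Without wild-type libraries 1 and 2 only wild-type library 3 is left in its group, so log2 changes alone are given. The median was then -0.152 for the proteasome genes and 0.149 for all tested genes, and no called proteasome gene changed sign. The falls of Psma2, Psma5, Psma7, Psmb1, Psmd10 and Psmg1 were at -0.22 to -0.42. The 7 rises had log2 changes of 0.16 to 0.39. Those of Psme3, Psme4, Psmd12 and Psmd5 were larger without these libraries than with them, and those of Psmd11, Psmd1 and Psmc6 were smaller. Psme3 was at 0.36 without these libraries and 0.29 with them, and Psmd1 at 0.18 without and 0.24 with them. Leaving out any 1 library kept 14 of the 17 falls and 2 of the 7 rises, those of Psmd11 and Psme3. The other rises lay near the threshold with all libraries, at adjusted p-values of 0.0268 to 0.0442 by limma. The number called higher was 2 without wild-type library 1 or homozygous library 2 or 3, 3 without wild-type library 2, and 4 without wild-type library 3. Over all tested genes 3469 to 4984 were called higher and 1042 to 1876 lower with 1 library left out. With all libraries these were 4698 and 1539. The lost falls were those of Psmb1 (without homozygous library 2), Psmg1 (without wild-type library 1 or homozygous library 2 or 3) and Psme1 (without any 1 library other than wild-type library 1). After TMM scaling, which brought the median of all tested genes to -0.0024, 34 proteasome genes were called lower and 1 higher, Psmd11. With that scaling 52.3% of all called genes were higher, against 75.3% before it.

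Of 21 tested genes that work with the proteasome (assembly factors, deubiquitinases, shuttles and adaptors) 12 rose and 3 fell, where 38.4% of all tested genes were called higher and 12.6% lower, with a median log2 change of 0.296 against 0.183 for all tested genes. Zfand2a, a stress-induced proteasome-associated zinc finger protein, had 21.0, 22.4 and 23.8 TPM in homozygous libraries, against 11.2, 12.2 and 12.0 TPM in wild-type libraries (log2 change 0.87, SE 0.09, adjusted p = 0.000296 by limma). Ddi2, the protease that activates Nfe2l1, rose by 0.57, and AI314180, the mouse name of an adaptor of the 19S cap, by 0.50. Sem1, the smallest subunit of the cap, fell by 0.61, with 226, 198 and 200 TPM in homozygous libraries, against 288, 319 and 345 TPM in wild-type libraries. Of 12 genes that control proteasome genes 7 rose and 2 fell, beside the same 38.4% and 12.6% over all tested genes. The small Maf proteins, which pair with Nfe2l1 at antioxidant response elements, lead this list with Maff at a log2 change of 1.25, Mafk at 0.96 and Mafg at 0.81, followed by Syvn1, an ubiquitin ligase of the endoplasmic reticulum, at 0.72. Of 4 tested ubiquitin and E1 genes, Rps27a (log2 change -0.34) and Ubb (-0.27) fell and the E1 enzyme Uba6 (0.63) rose. Of 13 genes of MHC class I presentation only Nlrc5, the transactivator of the class I genes, was called, at a log2 change of 0.33, and the list's median was 0.0645. Leaving out 1 library ended the call of Nlrc5 (wild-type 1, homozygous 2 or 3), Rps27a (homozygous 3), Uba6 (wild-type 1 or 2, homozygous 2 or 3) and Ubb (each except homozygous 3). TMM scaling ended the call of Nlrc5, at 0.14 (limma, adjusted p = 0.155), and of Uba6, at 0.44 (limma, adjusted p = 0.0522). Without wild-type libraries 1 and 2 together Uba6 was at 0.26 and Nlrc5 at 0.28.

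In the aged mice the proteasome genes varied far more between libraries of a group. The median coefficient of variation over the genes was 31.4% in CLL libraries, 30.4% in non-CLL libraries and 17.9% in aged wild-type libraries, against 4.22% in young homozygous and 4.87% in young wild-type libraries. CLL library 1 was the highest of its group for 28 of 48 genes, non-CLL library 5 for 34 of 48, and aged wild-type library 2 for 33 of 47. Several genes stood at other levels than in the young table, which was made separately. Psmb5 had 13.7, 5.82, 5.15, 2.33 and 5.41 TPM in CLL libraries and 7.17, 3.76, 16.2 and 0 TPM in non-CLL libraries, against 4.59, 3.71 and 4.52 TPM in aged wild-type libraries. The 0 of non-CLL library 6 is a listed value. Among non-CLL libraries only library 5 had Psmb5 above its own olfactory receptor median. After this background was subtracted, the log2 change of Psmb5 in CLL over aged wild-type cells was -0.69, against 0.34 before, and neither was called. Psmb7 had 54.6, 19.9, 21.9, 24.7 and 25.9 TPM in CLL libraries and 25.5, 23.7, 33.2 and 39.5 TPM in non-CLL libraries, against 23.0, 29.6 and 22.7 TPM in aged wild-type libraries. Groups overlapped for both.

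The immunoproteasome genes did not pass the threshold in any aged comparison by limma, and at an unadjusted p under 0.05 only Psme2 did, in non-CLL over aged wild-type cells. With TMM scaling Psme2 was called lower in CLL over aged wild-type cells, and Psme1 and Psme2 in non-CLL over aged wild-type cells. That scaling moved the median log2 change of all proteasome genes from -0.0241 to -0.346 in the former comparison and from -0.232 to -0.98 in the latter. Psmb8 had 921, 526, 727, 920 and 391 TPM in CLL libraries and 566, 496, 825 and 400 TPM in non-CLL libraries, against 622, 1463 and 503 TPM in aged wild-type libraries. Psmb9 had 93.7, 49.4, 60.7, 115 and 79.6 TPM in CLL libraries and 112, 77.9, 121 and 60.1 TPM in non-CLL libraries, against 81.0, 185 and 70.9 TPM in aged wild-type libraries. In both, aged wild-type library 2 stood above every other library, and the groups otherwise overlapped. This library also had Ddx3y at 17.4 TPM beside Xist at 38.1 TPM, where every other aged library had Ddx3y at 0 to 0.135 TPM. CLL library 4 had Xist at 4.1 TPM, the lowest of the aged libraries. The part of sex in the aged comparisons was not tested. Psmb10 had 90.2, 66.7, 46.7, 40.9 and 49.7 TPM in CLL libraries and 57.2, 65.8, 69.7 and 38.1 TPM in non-CLL libraries, against 62.4, 33.9 and 53.7 TPM in aged wild-type libraries. Psme1 had 263, 152, 116, 145 and 173 TPM in CLL libraries and 126, 118, 181 and 112 TPM in non-CLL libraries, against 160, 141 and 148 TPM in aged wild-type libraries. These 2 genes overlapped between all groups. Psme2 had 26.6, 20.0, 13.1, 11.6 and 19.6 TPM in CLL libraries and 19.9, 23.5, 12.1 and 15.7 TPM in non-CLL libraries, against 23.7, 42.6 and 27.9 TPM in aged wild-type libraries. Each non-CLL value of Psme2 lay below each wild-type value, but the log2 change of -0.78 (SE 0.33) did not pass the threshold (adjusted p = 0.0662 by limma). Psmb6, the counterpart of Psmb9, had 430, 306, 228, 259 and 174 TPM in CLL libraries and 176, 184, 271 and 165 TPM in non-CLL libraries, against 247, 223 and 173 TPM in aged wild-type libraries. The Psmb9 share of its pair with Psmb6 was 23.0% ± 7.78 in CLL libraries (n = 5) and 31.5% ± 5.19 in non-CLL libraries (n = 4), against 33.0% ± 10.9 in aged wild-type libraries (n = 3), with overlapping groups.

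**Figure D4:**
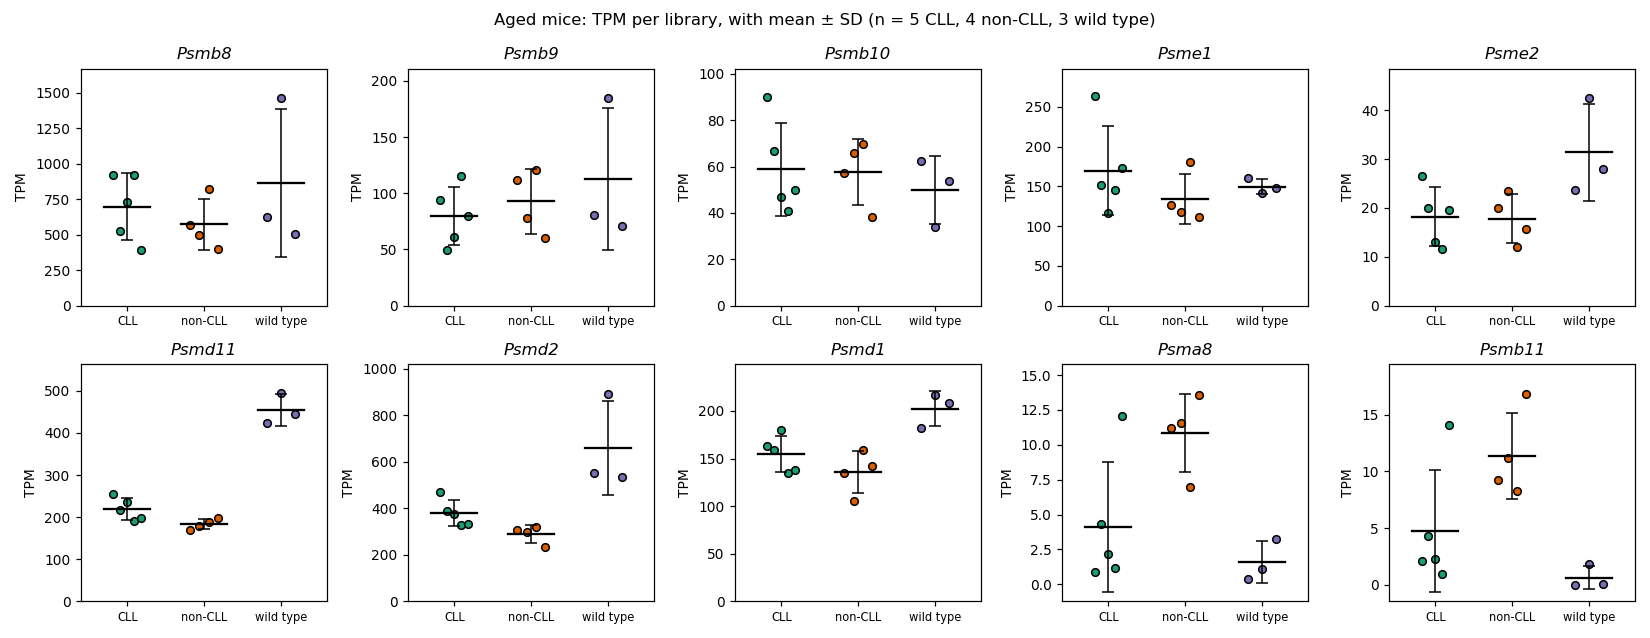
TPM per library (y axis) is shown for the 5 immunoproteasome genes, 3 subunits of the 19S cap (Psmd11, Psmd2, Psmd1) and the tissue-restricted Psma8 and Psmb11 in CLL cells (n = 5), non-CLL B cells (n = 4) and wild-type B cells (n = 3) of aged mice, with mean ± SD. The immunoproteasome genes overlap between CLL and non-CLL cells, and Psmd11 in both mutant groups reaches at most 254 TPM where wild type starts at 423 TPM.

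CLL cells differed from aged wild-type B cells in 1 of 48 proteasome genes. Psmd11, the lid subunit that was higher in young mutant B cells, had 254, 218, 235, 190 and 198 TPM in CLL libraries, against 423, 495 and 445 TPM in aged wild-type libraries (219 ± 26.2, n = 5, and 454 ± 36.5, n = 3, SD). The groups did not overlap, and the log2 change was -1.05 (SE 0.30, adjusted p = 0.0385 by limma). Over all 21202 tested genes 0.604% were called lower, 2.94% higher and 3.54% in either direction. Groups did not overlap for 5 proteasome genes lower in CLL (2.55% of all tested genes) and 1 higher (29.0%), 6 in all (31.5%). The next smallest adjusted p-values, by limma, were 0.0596 for Psmd2, the scaffold partner of Psmd1 in the cap, and 0.0677 for Psmb11. Psmd2 had 472, 388, 376, 328 and 335 TPM in CLL libraries, against 551, 893 and 534 TPM in aged wild-type libraries, a log2 change of -0.76 (SE 0.30). Psmb11, known from the thymus, had 2.11, 4.3, 2.3, 0.956 and 14.1 TPM in CLL libraries, against 0, 1.83 and 0.0687 TPM in aged wild-type libraries, and the CLL values lie near the background of their libraries. By unadjusted p, 6 of 48 were under 0.05. The fall of Psmd11 did not pass the threshold without CLL library 2 or 5 or aged wild-type library 1 or 3, with adjusted p-values of 0.0506 to 0.163 by limma. Other calls appeared without CLL library 1 (Psma6 and Psmd2 lower), CLL library 4 (Psmd2 lower, Psmb11 and Psmd14 higher) or wild-type library 2 (Psmb11 higher).

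CLL cells against non-CLL B cells of the same mice gave 0 calls of 48 by limma, where 5.02% of all 22316 tested genes were called lower, 0.744% higher and 5.77% in either direction. The unadjusted p was under 0.05 for 7 genes. Groups did not overlap for 1 gene higher in CLL cells, Psmd2 (1.17% of all tested genes), and 2 lower, Psma5 and Psme4 (7.51%), 3 in all (8.68%). The smallest adjusted p-values, by limma, were 0.0618 for Psma8, 0.0637 for Psmc3 and 0.0708 for Psmb11. Psma8 had 0.86, 4.34, 2.17, 1.2 and 12.1 TPM in CLL libraries, against 11.2, 11.6, 7.0 and 13.6 TPM in non-CLL libraries, with CLL library 6 alone inside the non-CLL range. Psmb11 had 2.11, 4.3, 2.3, 0.956 and 14.1 TPM in CLL libraries, against 9.23, 11.2, 8.24 and 16.8 TPM in non-CLL libraries, with the same library inside the range. Both lie near the background of these libraries. Psmc3, a cap ATPase, had 170, 240, 226, 240 and 216 TPM in CLL libraries, against 160, 100, 195 and 81.1 TPM in non-CLL libraries, a log2 change of 0.77 (SE 0.28). Only CLL library 1 and non-CLL library 5 broke the order of the groups. Psmd14, the deubiquitinase of the lid, had 293, 271, 159, 137 and 186 TPM in CLL libraries, against 92.8, 92.1, 168 and 23.2 TPM in non-CLL libraries, a log2 change of 1.38 (SE 0.49, adjusted p = 0.0746 by limma). Without CLL library 6, 4 genes were called higher (Psma2, Psmb1, Psmc3 and Psmd14) and 3 lower (Psma8, Psmb11 and Psme4). Over all 22078 genes tested without that library 382 were called higher and 10736 lower. Without non-CLL library 5 Psmd14 was called higher. TMM scaling called Psmc3 higher. It brought the median of all tested genes to -0.223 on the log2 scale, against -0.774 before. The share of higher genes among all called genes went to 65.6%, against 12.9%. The median of the proteasome genes was 0.838 with TMM scaling and 0.12 before. Genes with a mean of at least 20 TPM had a median of -0.0394 without TMM scaling.

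Non-CLL B cells set against aged wild-type cells gave 3 genes called higher and 4 lower, where 55.8% of all 22150 tested genes were called higher, 1.48% lower and 57.3% in either direction. Groups did not overlap for 3 genes higher (53.7% of all tested genes) and 6 lower (2.33%), 9 in all (56.0%). Each aged group enters 2 of the 3 aged comparisons, so these are no independent evidence of each other. Psmd11 had 170, 180, 189 and 197 TPM in non-CLL libraries, against 423, 495 and 445 TPM in aged wild-type libraries, a log2 change of -1.30 (SE 0.20, adjusted p = 0.000175 by limma). The scaffold Psmd2 had 308, 298, 322 and 232 TPM in non-CLL libraries, against 551, 893 and 534 TPM in aged wild-type libraries, a log2 change of -1.15 (SE 0.25, adjusted p = 0.00175 by limma). In both, every non-CLL library lay below every wild-type library. The alpha subunit Psma2 had 62.8, 41.6, 87.7 and 29.6 TPM in non-CLL libraries, against 89.5, 100 and 102 TPM in aged wild-type libraries, a log2 change of -0.91 (SE 0.35, adjusted p = 0.0416 by limma). The scaffold Psmd1 had 135, 106, 159 and 142 TPM in non-CLL libraries, against 182, 217 and 208 TPM in aged wild-type libraries, a log2 change of -0.59 (SE 0.22, adjusted p = 0.0439 by limma). In both, non-CLL library 5 was the highest of its group and still lay below the lowest wild-type library.

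The 3 genes called higher are low or tissue-restricted. Psmb11 had 9.23, 11.2, 8.24 and 16.8 TPM in non-CLL libraries, against 0, 1.83 and 0.0687 TPM in aged wild-type libraries, a log2 change of 3.05 (SE 0.45, adjusted p = 0.000138 by limma). Psma8, an alpha subunit of germ cells, had 11.2, 11.6, 7.0 and 13.6 TPM in non-CLL libraries, against 0.403, 1.13 and 3.27 TPM in aged wild-type libraries, a log2 change of 2.31 (SE 0.45, adjusted p = 0.000995 by limma). Both lie close to the olfactory receptor background of their libraries, which is 0 to 0.745 TPM in the wild-type ones. Psmd9, a chaperone of the cap, had 24.3, 24.0, 34.8 and 22.6 TPM in non-CLL libraries, against 12.6, 19.1 and 9.12 TPM in aged wild-type libraries, a log2 change of 0.94 (SE 0.33, adjusted p = 0.0305 by limma). After each library's olfactory receptor median was subtracted, 0 proteasome genes were called higher and 1 lower, Psmd11. Of all 13426 genes tested after it, 31 were called higher and 12 lower. Without non-CLL library 5, 11 proteasome genes were called lower in place of 4, beside 389 of all 21339 tested genes. Without non-CLL library 4 or 6, or any 1 aged wild-type library, 2 proteasome genes were called lower (Psmd2 and Psmd11), and Psma2 and Psmd1 then did not pass the threshold. Psmd1 also missed it without non-CLL library 2 (adjusted p = 0.0999 by limma). Psmd9 did not pass it without non-CLL library 2, 4 or 5 or aged wild-type library 1 or 3. TMM scaling called 25 proteasome genes lower and 2 higher, beside 2748 lower and 10421 higher of all 22150 tested genes. It brought the median of all tested genes to 1.18 against 1.65 before, and that of the proteasome genes to -0.98 against -0.232. The share of higher genes among all called genes was 79.1% with TMM scaling, against 97.4%. TMM scaling rests on all tested genes, those near the background included. Without it, genes with a mean of at least 20 TPM had a median of -0.00957. The part of the scaling in the 25 falls was not tested.

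Set by role, the immunoproteasome genes had a median log2 change of -0.22 in CLL over aged wild-type cells and 0.0114 in CLL over non-CLL cells. In non-CLL over aged wild-type cells it was -0.193, with a range of -0.78 to 0.21. The medians of all tested genes, which include many genes near the background, were 0.931, -0.774 and 1.65 in the same order. Among genes with a mean of at least 20 TPM they were -0.0447, -0.0394 and -0.00957. The young comparison had shown -0.464 for the same 5 genes, against 0.183 for all tested genes. Psmd11 and Psmd1 had opposite signs in the young mutant and the aged non-CLL comparison, with Psmd11 at 0.42 and -1.30 and Psmd1 at 0.24 and -0.59, and this difference was not tested because the tables were made separately.

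Few partner genes passed the threshold in the aged comparisons. Of 21 tested partners 0 were called by limma in CLL over aged wild-type and in CLL over non-CLL cells (3 and 2 at an unadjusted p under 0.05), and 2 rose in non-CLL over aged wild-type cells. Over all tested genes 3.54% and 5.77% were called in either direction in the CLL comparisons with aged wild-type and with non-CLL cells, and 55.8% were called higher in non-CLL over aged wild-type cells. The 2 were Shfm1, the older symbol of Sem1 (log2 change 1.82), and the shuttle Ubqln2 (1.09). Of the 12 control genes 0 were called by limma in the 3 comparisons (at an unadjusted p under 0.05, 4 in CLL over aged wild-type cells and 1 in each of the others). Rps27a, a ubiquitin fused to a ribosomal protein, had 36.1, 11.4, 24.3, 28.2 and 32.5 TPM in CLL libraries and 22.2, 19.9, 30.9 and 15.5 TPM in non-CLL libraries, against 6.41, 3.44 and 9.77 TPM in aged wild-type libraries. Both mutant groups lay wholly above wild type, with log2 changes of 1.87 (SE 0.46, adjusted p = 0.0163) in CLL and 1.67 (SE 0.40, adjusted p = 0.00358) in non-CLL cells by limma. Its call in CLL over aged wild-type cells was lost with neither trend nor robust estimation and with the replicate block (adjusted p = 0.0513 and 0.088 by limma). Ubiquitin genes have near-identical copies, so their levels are uncertain. Among the 13 genes of MHC class I presentation 0 were called by limma in CLL over aged wild-type and in CLL over non-CLL cells (3 and 2 at an unadjusted p under 0.05). Pdia3, a chaperone of the peptide-loading complex, fell in non-CLL over aged wild-type cells (log2 change -0.89), a call lost without non-CLL library 2 or 4 or aged wild-type library 2 or 3. After background subtraction Rps27a in both comparisons and Shfm1, Ubqln2 and Pdia3 in non-CLL over aged wild-type cells did not pass the threshold. With TMM scaling the log2 change of Ubqln2 was 0.36, and that of Rps27a in non-CLL over aged wild-type cells was 0.99. Markers of other spleen cells also differed between libraries. The 9 measured T and NK cell markers summed to 23.4 to 380 TPM in CLL libraries and 264 to 958 TPM in non-CLL libraries, against 3.99 to 632 TPM in aged wild-type libraries. Cd3g alone made up 362 TPM in CLL library 1 and 596 TPM in aged wild-type library 2, where Cd3e was at 2.03 and 0.281 TPM. Without Cd3g the other 8 summed to 18.0 to 62.4 TPM in CLL libraries and 186 to 736 TPM in non-CLL libraries, against 3.99 to 36.3 TPM in aged wild-type libraries. Cd3e, at 5.5 to 15.0 TPM in non-CLL libraries, lies near their background. The 12 measured myeloid markers summed to 104 to 1236 TPM in CLL libraries and 271 to 711 TPM in non-CLL libraries, against 59.5 to 298 TPM in aged wild-type libraries. The 1236 TPM is CLL library 2 alone, and the other CLL libraries were at 104 to 187 TPM, below every non-CLL library. The part of these markers in the result was not tested.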

How the data were processed

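RNA-seq of 18 libraries was analysed, and the 12 chromatin samples were not analysed here. The deposited values are TPM computed by the authors, a unit named in the labels of the aged libraries whose columns sum to 1000000. The submitters' processing notes name the build mm10 and, with no role, MACS2 2.2.0, STAR 2.4.0.1 and Bowtie2 2.3.4.1. The sources used here give neither the quantification tool nor the strandedness. TPM keeps no counts, so no depth, counting interval or count test is given. Left out were 25 and 26 date-like names of the aged and young tables and 887 unnamed entries of the young table (4.44% to 9.36% of TPM).

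Genes that reached 1 TPM in a number of libraries equal to the smaller group were fitted on log2(TPM + 1) with limma 3.58.1 (trend, robust, two-sided, R 4.3.3), within 1 table and 2 groups at a time, with Benjamini-Hochberg adjustment over all tested genes. Fold values on this scale understate changes of low genes. The fit was tested on simulated data. Alternatives were another pseudocount, no filter, a mean of at least 20 TPM, TMM scaling (trimmed mean of M-values, coded from its formula), no trend or robust estimation, a replicate block, 1 fit of the 3 aged groups, background subtraction and left-out libraries. Non-CLL cells come from the same mice as CLL cells, per the series' design text. That a shared number marks 1 mouse is not stated, and the deviations of same-numbered CLL and non-CLL libraries correlate with r of -0.0346 to 0.132. Members and lists were chosen with earlier results of these data known, and 4 listed genes are not reported here. Members given with values in every library are the 5 immunoproteasome genes, Psmb5 to Psmb7, and per comparison the 6 largest changes among called genes or, with under 3 called, the 3 smallest adjusted p-values, and up to 4 called genes per partner list are named, most with their log2 change alone. Psmd14, Psmd11 in young cells, Psma2 in young cells, Psmg4 and the other values given were added after they were seen. Promoters are RefSeq sequences of GRCm38.p6. All 48 symbols were found in its gene table.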

Additional observations from a re-analysis of the deposited data

Results flagged for a closer look

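Of 104 checks of a gene in an aged group, 9 had a library far from the others of its group, and chance flags about 1 in 20. In CLL library 1 Psma4 was at 101 TPM (others 56.7 to 68.0), Psmb7 at 54.6 TPM (others 19.9 to 25.9) and Psmd8 at 590 TPM (others 72.7 to 188). In CLL library 5 Psmd9 was at 22.7 TPM (others 14.0 to 15.8), and in CLL library 6 Psmb11 was at 14.1 TPM (others 0.956 to 4.3). In non-CLL library 5 Psma7 was at 751 TPM (others 341 to 396), Psmb1 at 249 TPM (others 125 to 146), Psmb2 at 81.3 TPM (others 33.5 to 39.1) and Psmd9 at 34.8 TPM (others 22.6 to 24.3).

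Mutant and wild-type libraries differed in opposite directions in young and in aged non-CLL cells for 3 genes, with no overlap of the groups at either age, and these differences were not tested. Psmd11 had a log2 change of -1.30 in aged non-CLL and 0.42 in young homozygous cells, and Psmd1 of -0.59 in aged non-CLL and 0.24 in young homozygous cells. Psma8 had 2.31 in aged non-CLL cells, where it lies near the background, and in young cells 0.0666 to 0.267 TPM in homozygous libraries, against 0.465 to 0.985 TPM in wild-type libraries.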

How the results depend on the processing

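No proteasome gene called in a comparison reversed its direction under any alternative run. Genes that were not called did, and with TMM scaling 3 of 46 changed sign in the young comparison (Psma3, Psmd14 and Psmd6, the last from 0.01 to -0.19 and then called lower), 12 of 48 in CLL against aged wild-type cells, 17 of 48 in CLL against non-CLL cells and 10 of 48 in non-CLL against aged wild-type cells. In the young comparison the number called higher (7) was 4 without a filter on low values, 1 with TMM scaling and 3 with neither trend nor robust estimation. The number called lower (17) was 34 with TMM scaling. Leaving out 1 library gave 2 to 7 higher and 14 to 17 lower. Over all 12219 tested genes 4698 were called higher and 1539 lower in the main fit, and 2988 and 2722 with TMM scaling. With neither trend nor robust estimation these were 4582 and 1547, and without a filter 4316 and 1424 of 21353. In CLL against aged wild-type cells the number called higher (0) was 1 with a pseudocount of 0.1 and 1 with all 3 aged groups in 1 fit, and the number called lower (1) was 2 with a pseudocount of 0.1, 5 with TMM scaling, 0 with neither trend nor robust estimation, 0 with the replicate block, 3 with all 3 aged groups in 1 fit and 0 after background subtraction. Leaving out 1 library gave 0 to 2 higher and 0 to 3 lower. Over all 21202 tested genes 623 were called higher and 128 lower in the main fit. These were 8414 and 439 with the pseudocount of 0.1, 3466 and 848 with TMM scaling, and 6224 and 488 in 1 fit. They were 122 and 13 with neither trend nor robust estimation, 2 and 0 with the block. After background subtraction they were 48 and 53 of 13044. In CLL against non-CLL cells the number called higher (0) was 1 with TMM scaling and 1 with all 3 aged groups in 1 fit, and the number called lower (0) was 2 without the number 6 libraries together, an alternative chosen after seeing the data. Leaving out 1 library gave 0 to 4 higher and 0 to 3 lower. Over all 22316 tested genes 166 were called higher and 1121 lower in the main fit. These were 296 and 155 with TMM scaling and 213 and 3174 in 1 fit. Without the number 6 libraries together they were 261 and 10912 of 22292. In non-CLL against aged wild-type cells the number called higher (3) was 0 with a mean of at least 20 TPM, which removes low genes from the fit, and 0 after background subtraction, and the number called lower (4) was 1 with that mean, 25 with TMM scaling, 2 with neither trend nor robust estimation and 1 after background subtraction. Leaving out 1 library gave 2 to 4 higher and 2 to 11 lower. Over all 22150 tested genes 12353 were called higher and 328 lower in the main fit. These were 10421 and 2748 with TMM scaling and 12492 and 166 with neither trend nor robust estimation. They were 24 and 9 of 6795 with the mean of at least 20 TPM. After background subtraction they were 31 and 12 of 13426. The cause of these changes was not tested.

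With the replicate block, 6 young proteasome genes were called higher and 16 lower, beside 4821 higher and 1810 lower of all 12219 tested genes. In CLL against non-CLL cells, where a shared number may mark the same mouse, 0 proteasome genes were called either way. Of all 22316 tested genes there, 120 were called higher and 577 lower. Young libraries and CLL with wild-type libraries share only a number, with correlations of deviations of -0.102, 0.242 and 0.316 in the young pairs and 0.0371 and -0.0125 in the CLL and wild-type pairs. In the young pairs not every library correlated best with its own number. For non-CLL against aged wild-type cells alone, no paired analysis was possible because these groups share only number 2. TPM keeps no depth, so the precision of low genes is unknown.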
